A study of Mus musculus with 6 samples.

Results

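The genes of the mitochondrial ribosomal proteins were followed in mouse bone marrow cells carrying 1 of 2 short hairpin RNAs (shRNAs) against Rad21, a subunit of the cohesin ring. Members were all genes whose symbol in the platform annotation is Mrpl or Mrps followed by a number, and each was represented by its probe set with the highest mean among those assigned to exactly 1 gene. This gave 74 members of 12393 genes tested, on 127 probe sets, of which 33 members had 2 or more and 41 had 1. RefSeq lists 78 such symbols, and Mrpl30, Mrpl53, Mrps10 and Mrps27 had no probe set of their own and were not analysed here as members.

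Mitochondria make a small set of respiratory chain subunits from their own DNA, on ribosomes of their own. The RNA of these ribosomes is transcribed from mitochondrial DNA, whereas all of their proteins are encoded in the nucleus, made in the cytosol and imported. MRPL proteins belong mostly to the large subunit, which forms peptide bonds, and MRPS proteins mostly to the small subunit, which reads the messenger. Many have counterparts in bacterial ribosomes, and the others were added during the evolution of mitochondria. In marrow progenitors, mitochondrial translation is known to be needed as cells leave quiescence and differentiate.

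Total RNA was hybridised to 6 Affymetrix arrays, in 3 groups of 2 arrays, transduced with Rad21 shRNA1, with Rad21 shRNA2 or with the empty vector. All groups started as marrow depleted of lineage-positive cells, from C57/BL6 mice of 6 to 8 weeks. All were transduced with lentivirus for 24 h, kept overnight in 1 µg/mL puromycin, sorted for live cells and grown at 10000 cells/mL in methylcellulose with cytokines, and RNA was taken on day 7. The control group therefore also carried a lentivirus and underwent drug selection. The labels give 1 empty vector as the only control, name no batch, and leave unsaid whether a group's 2 arrays were separate cultures or animals, so the spread behind the p-values may be technical only.

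Deposited intensities were on a linear scale with array medians of 100.2 to 104.9, and all values below are log2 intensities or differences of them. Rad21 measured 11.14 and 10.49 on the empty-vector arrays, then 9.63 and 9.14 for shRNA1 and 9.50 and 9.11 for shRNA2. All 4 shRNA arrays lay below both controls, by a mean of 1.47 (log2 difference −1.47 ± 0.26, SE), with an adjusted p of 0.0558 in limma with Benjamini-Hochberg adjustment over all genes (0.0072 to 0.203 over 14 alternative settings; it passed at 0.0072 without empty-vector replicate 2). These Rad21 values are from its brightest probe set. Another Rad21 probe set differed by −1.78 ± 0.40. The dimmest differed by −0.43 ± 0.29 and overlapped, at 6.64 and 7.13 with empty vector and 6.10 to 6.86 with shRNA. In empty-vector replicate 1, the 3′ probe set of the Gapdh control exceeded the 5′ probe set by 2.42, against −0.08 to 0.02 on the other 5 arrays, and for b-Actin the gap was 2.55 against 0.22 to 0.33. A gap of that kind is a usual sign of degraded or short RNA, and the members are therefore also set against each control by itself.

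Most mitochondrial ribosomal protein genes were measured somewhat higher in the Rad21 shRNA cells than with empty vector, and none passed the test alone. The difference between the 4 shRNA arrays and the 2 controls was positive in 58 of 74 members and negative in 16, while it was positive in 46.4% of all genes tested. The median difference of the members was 0.26, or 1.20-fold, with quartiles of 0.06 and 0.54, against −0.02 over all genes. The 4 arrays with shRNA all lay above both controls for 31 members, 41.9% of them, and all below for 0. Over all genes these shares were 11.5% and 13.6%. All 74 members had a mean intensity above the all-gene median, with a median of 9.31 against 7.18 over all genes. The all-gene shares here and below thus include many dimmer genes, and shares among genes of like intensity are not given. limma called 0 members higher and 0 lower at an adjusted p under 0.05, where 0.734% of all genes were called higher and 1.4% lower. At an unadjusted p under 0.05, 20 members were higher and 0 lower, against 7.88% and 8.84% of all genes. The members' summed intensity was 41544 and 43851 with empty vector, 49583 and 46019 with shRNA1, and 53306 and 51208 with shRNA2, so that the groups did not overlap. In bulk RNA of this kind, fewer cells of a type and less RNA per cell cannot be told apart.

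**Figure D1:**
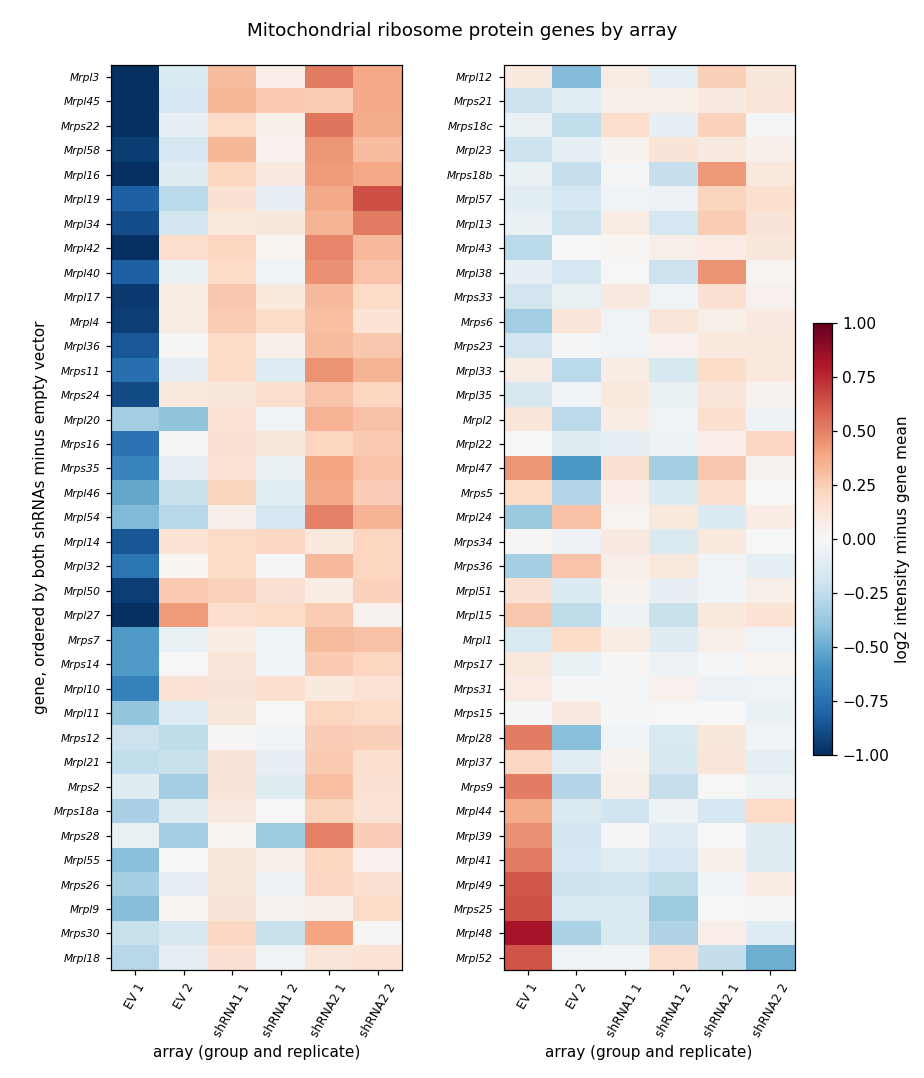
Log2 intensity of each of the 74 members (rows, in 2 panels ordered by the difference of both shRNAs from empty vector) on each of the 6 arrays (columns, EV for empty vector), as the difference from that gene's mean over the 6 arrays, with colours capped at 1 in either direction. The shRNA2 columns are mostly above the gene mean, and the column of empty-vector replicate 1 holds most of the darkest cells, low for genes such as Mrpl3 and Mrpl27 and high for Mrpl48 and Mrpl52.

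Large-subunit proteins with bacterial counterparts included several of the larger positive differences. Mrpl3, a ribosomal RNA-binding protein near the catalytic centre, was measured at 7.70 and 8.71 with empty vector, 9.15 and 8.91 with shRNA1, and 9.37 and 9.23 with shRNA2. Every shRNA array lay above both controls, and the difference of 0.96 ± 0.29 (1.94-fold) was the highest of the 74, with an adjusted p of 0.189. Mrpl19, the counterpart of bacterial L19, gave 7.88 and 8.42 against 8.85 and 8.61 with shRNA1 and 9.07 and 9.34 with shRNA2. Its groups did not overlap either, and its difference was 0.82 ± 0.20 with an adjusted p of 0.124. Mrpl34, one of the smallest proteins of the subunit, gave 8.53 and 9.24 with empty vector, 9.53 on both shRNA1 arrays, and 9.76 and 9.94 with shRNA2, a difference of 0.80 ± 0.22. In each of these 3 genes empty-vector replicate 1 was the lowest array of the 6. Without it the differences were 0.45 for Mrpl3, 0.54 for Mrpl19 and 0.45 for Mrpl34, and Mrpl3 was no longer the highest of the 74; without replicate 2 they were 1.46, 1.09 and 1.16.

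Mrpl20 had the smallest p of all members and differed from these in that its controls lay close together. It encodes the counterpart of bacterial L20, which binds ribosomal RNA early in assembly of the large subunit. Its values were 9.44 and 9.39 with empty vector, 9.93 and 9.76 with shRNA1, and 10.14 and 10.09 with shRNA2. The difference was 0.56 ± 0.13 (1.48-fold, adjusted p = 0.106, range 0.0428 to 0.401 over 14 alternative settings), and it stayed between 0.52 and 0.61 whichever array was left out. Other proteins with bacterial counterparts had controls as close as that, with smaller differences. Mrps12, whose bacterial counterpart takes part in accurate decoding, gave 9.11 and 9.07 with empty vector, 9.33 and 9.30 with shRNA1, and 9.57 and 9.56 with shRNA2, a difference of 0.35 ± 0.12. Mrpl21 gave 8.23 and 8.25, then 8.60 and 8.39, then 8.73 and 8.64, a difference of 0.35 ± 0.13. Mrps12 and Mrpl21 were singled out after their values had been seen, for the closeness of their controls.

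Among large-subunit proteins added in mitochondria, Mrpl45, Mrpl58 and Mrpl54 were higher on every shRNA array than on either control. Mrpl45, which holds the ribosome to the inner membrane near the exit of the peptide tunnel, gave 9.29 and 10.15 with empty vector, 10.66 and 10.58 with shRNA1, and 10.58 and 10.70 with shRNA2. The 4 shRNA arrays lay within a narrow band, and the controls differed from each other by nearly as much as from them; the difference was 0.91 ± 0.25 (adjusted p = 0.155). Mrpl58, a peptidyl-tRNA hydrolase built into the ribosome that is related to release factors, gave 7.51 and 8.29, then 8.79 and 8.50, then 8.90 and 8.76, a difference of 0.84 ± 0.25. Without empty-vector replicate 1 the difference was 0.48 for Mrpl45 and 0.45 for Mrpl58, and without replicate 2 it was 1.35 and 1.23. Mrpl54 gave 8.31 and 8.47 with empty vector, 8.80 and 8.57 with shRNA1, and 9.25 and 9.09 with shRNA2, a difference of 0.54 ± 0.15. For Mrpl54 the shRNA2 arrays stood apart from the shRNA1 arrays as well as from the controls.

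Small-subunit genes differed over a similar range. Mrps22, a mitochondrial addition in which inherited mutations cause disease in people, gave 7.06 and 8.05 with empty vector, 8.33 and 8.18 with shRNA1, and 8.67 and 8.50 with shRNA2. The difference was 0.86 ± 0.28 (adjusted p = 0.214) with no overlap between groups, and empty-vector replicate 1 was again the lowest array; without it the difference was 0.37, and without replicate 2 it was 1.36. Mrps11, the counterpart of bacterial S11, gave 6.77 and 7.44, then 7.70 and 7.39, then 7.97 and 7.86, so that the second shRNA1 array lay between the controls; the difference was 0.62 ± 0.22, or 0.29 without empty-vector replicate 1. Mrps14 gave 9.87 and 10.44, then 10.56 and 10.40, then 10.70 and 10.65, with the same kind of overlap. Mrps5 (7.71 and 7.22 with empty vector, 7.38 to 7.69 with shRNA) showed no separation of the groups. Mrps36, now assigned to the 2-oxoglutarate dehydrogenase complex and not to the ribosome, gave 9.07 and 9.68 with empty vector and 9.31 to 9.51 with shRNA, a difference of 0.03 ± 0.20.

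Grouped by subunit, 38 of 49 large-subunit members (Mrps18a and Mrps30 included, which sit there) had a positive difference, with a median of 0.29, and 20 of 25 small-subunit members, with a median of 0.23, or 19 of 24 with a median of 0.24 without Mrps36. Grouped by number in the name, 36 of 42 members with a bacterial counterpart were positive with a median of 0.32, and 22 of 32 added in mitochondria with a median of 0.20. The number misplaces at least Mrpl47, Mrps24 and Mrps28, which belong to bacterial families. Moving them, after the values had been seen, gave 39 of 45 with a median of 0.32 and 19 of 29 with a median of 0.19. Without Mrps36 the latter became 18 of 28 with a median of 0.20. The split stays approximate, since further members may be misplaced by number. Members without overlap between groups were found in both subunits: 22 large-subunit members (44.9%) and 9 small-subunit members (36%) had all 4 shRNA arrays above both controls and 0 had all 4 below, where the shares over all genes were 11.5% and 13.6%.

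**Figure D2:**
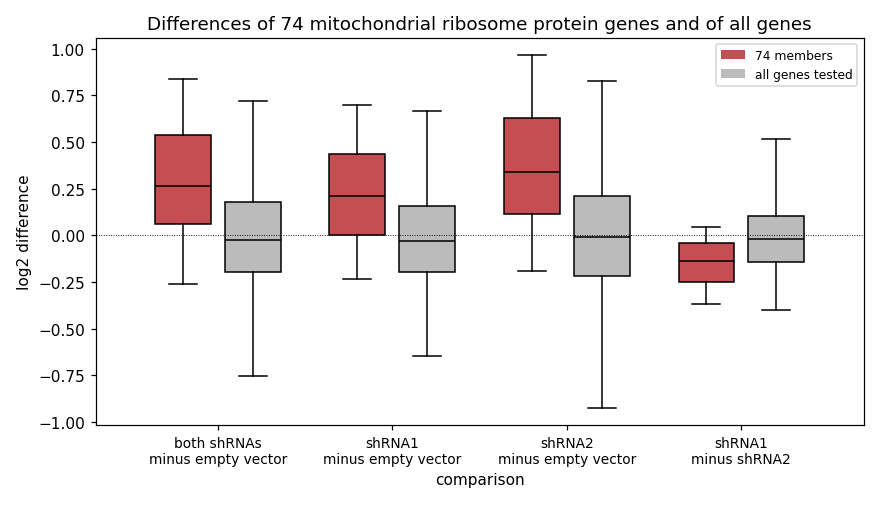
Differences in log2 intensity (vertical) of the 74 members and of all genes tested for the 4 comparisons. Lines are medians, boxes the quartiles and whiskers the percentiles 5 and 95 over genes; member medians are 0.26, 0.21 and 0.34 in the comparisons with empty vector and −0.14 for shRNA1 minus shRNA2.

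Of the 16 members with a negative difference, 14 were higher on empty-vector replicate 1 than on replicate 2. Over all members this held for 30 of 74, and over all genes for 7191 of 12393. Replicate 1 enters both values, and a high replicate 1 lowers the difference by arithmetic. Part of this relation is therefore built in, and its cause was not tested. In 13 of the 16 the shRNA mean lay above replicate 2, but not in Mrpl1, Mrpl52 and Mrps15. Mrpl52, a mitochondrial addition of the large subunit, was the lowest of all members, at 10.50 and 9.83 with empty vector, 9.85 and 10.04 with shRNA1, and 9.63 and 9.39 with shRNA2. Both shRNA2 arrays lay below both controls while the shRNA1 arrays lay between them, and the difference was −0.44 ± 0.22 (adjusted p = 0.399). Mrpl48 gave 9.26 and 8.11 with empty vector, 8.28 and 8.13 with shRNA1, and 8.49 and 8.30 with shRNA2, a difference of −0.38 ± 0.32. Here all 4 shRNA arrays lay above control replicate 2 and below control replicate 1. Mrps25 (9.30 and 8.51 with empty vector, then 8.52 and 8.31, then 8.67 and 8.67), Mrpl49 (8.60 and 7.76, then 7.78 and 7.73, then 7.95 and 8.05) and Mrpl41 (10.74 and 10.04, then 10.11 and 10.04, then 10.27 and 10.09) also had control replicate 1 as the highest array. Without it, the differences of Mrpl48, Mrpl49, Mrpl41 and Mrps25 turned positive, at 0.19, 0.12, 0.09 and 0.03. That of Mrpl52 stayed negative at −0.10 but was no longer the lowest of the members, which was Mrpl24 at −0.28.

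The 2 controls lay further apart for many of these genes than for genes at large, a difference that was not tested. Empty-vector replicate 1 minus replicate 2 ranged from −1.51 for Mrpl27 to 1.15 for Mrpl48, with 30 members positive and 44 negative, and went beyond 0.5 in 36 members, or 48.6%, against 33.6% of all genes. Mrpl27, whose bacterial counterpart reaches the catalytic centre, gave 8.76 and 10.26 with empty vector, 10.00 and 10.03 with shRNA1, and 10.08 and 9.87 with shRNA2, so that every shRNA array lay between the controls. Mrpl42 gave 8.37 and 9.78, then 9.81 and 9.63, then 10.09 and 9.92, and Mrpl50 gave 6.86 and 8.06, then 8.03 and 7.96, then 7.88 and 8.03. In the other direction, Mrpl47 gave 8.92 and 7.90 against 8.63, 8.14, 8.75 and 8.51, and Mrpl28 gave 10.03 and 9.09 against 9.49, 9.36, 9.63 and 9.48. The fitted differences of these 5 genes (0.49, 0.79, 0.51, 0.10 and −0.07, in the order named) are averages over controls that stood on different sides of the shRNA arrays, or nearly so.

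Set against each control by itself, the members kept a positive median. Against empty-vector replicate 2, the mean of the 4 shRNA arrays was higher in 65 of 74 members, with a median of 0.19, where it was higher in 53.1% of all genes, with a median of 0.02. Against replicate 1 it was higher in 54 members, with a median of 0.34, against 42.4% of all genes and a median of −0.07. All 4 shRNA arrays lay above replicate 2 in 49 members (29.4% of all genes) and above replicate 1 in 45 (28% of all genes). The shRNA mean lay above both controls in 47 members, 63.5% of them, against 26.0% of all genes, below both in 2, and between them in 25. In a fit without replicate 1, limma called 0 members for both shRNAs together, where 1.97% of all genes were called higher and 3.27% lower. Without replicate 2, which leaves the array with the large 3′ gap as the only control, it called 29 members higher and 7 lower, against 13.1% and 12.1% of all genes, and the lone control is assumed to vary like the other groups.

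**Figure D3:**
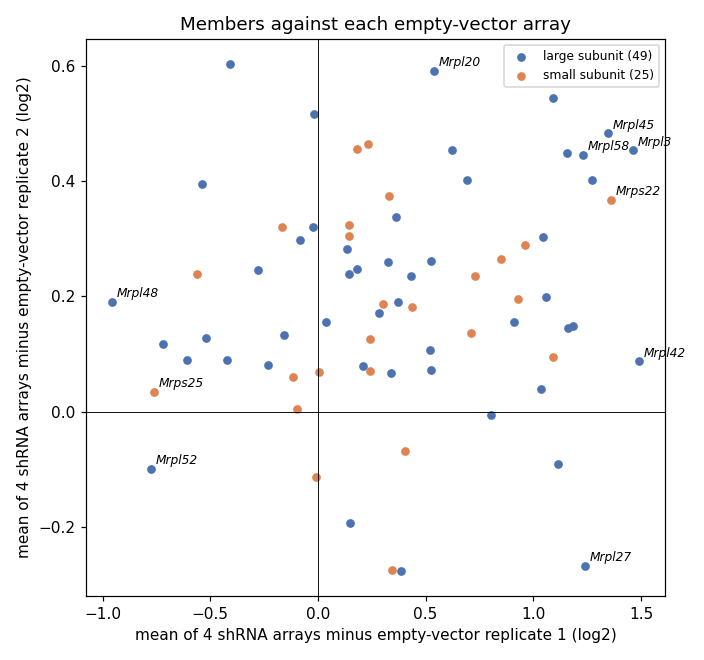
Mean log2 intensity of the 4 shRNA arrays minus empty-vector replicate 1 (horizontal) and minus replicate 2 (vertical), each point 1 member, coloured by subunit. The 47 members in the upper right quadrant lie above both controls and the 2 in the lower left lie below both; the axes share the shRNA arrays.

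Taken 1 shRNA at a time, the median difference from empty vector was larger with shRNA2 than with shRNA1, and both comparisons share the same empty-vector arrays. With shRNA1, 55 of 74 members were higher than empty vector (44.8% of all genes), with a median of 0.21 against −0.03 over all genes. The range ran from −0.49 for Mrps25 to 0.90 for Mrpl45, and 32 members had both shRNA1 arrays above both controls (15.2% of all genes), with 0 below (19.5%). limma called 0 members for shRNA1, where 0.0968% of all genes were called higher and 0.137% lower; at an unadjusted p under 0.05, 6 members were higher (3.86% of all genes) and 0 lower (5.44%). With shRNA2, 59 members were higher (48.4% of all genes), with a median of 0.34 against −0.01 over all genes. That range ran from −0.65 for Mrpl52 to 1.09 for Mrpl3, and 47 members lay above both controls on both arrays (21.6% of all genes) and 2, Mrpl52 and Mrps31, below (22.6%). limma called 0 members for shRNA2, where 0.88% of all genes were called higher and 1.95% lower. At an unadjusted p under 0.05, 21 members were higher (8.59% of all genes) and 1, Mrpl52, was lower (9.24%).

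The smallest p-values for shRNA2 belonged to Mrpl20 (difference 0.70 ± 0.15, adjusted p = 0.0787), Mrpl54 (0.78 ± 0.17, adjusted p = 0.0798), Mrpl19 (1.05 ± 0.24, adjusted p = 0.0858), Mrpl34 (0.96 ± 0.25, adjusted p = 0.126) and Mrpl46 (0.68 ± 0.19, adjusted p = 0.148), all by limma. Without empty-vector replicate 1, Mrpl20 alone of the members passed for shRNA2, with an adjusted p of 0.0469, where 3.48% of all genes were called higher and 5.41% lower; 0 members passed for shRNA1 (0.379% and 0.621% of all genes). Without replicate 2, 27 members were called higher and 4 lower for shRNA2 (12.5% and 11.2% of all genes), and 23 higher and 5 lower for shRNA1 (11.1% and 9.34%). Mrpl46, a mitochondrial addition of the large subunit, gave 8.04 and 8.33 with empty vector, 8.77 and 8.43 with shRNA1, and 8.92 and 8.79 with shRNA2.

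Between the shRNAs, 63 of 74 members were lower with shRNA1 than with shRNA2 and 11 were higher, and 45% of all genes were higher with shRNA1. The median of shRNA1 minus shRNA2 was −0.14 for the members and −0.02 for all genes. Within shRNA1, replicate 1 exceeded replicate 2 by a member median of 0.14 (−0.05 over all genes), which is as much as between the shRNAs, and within shRNA2 by 0.08 (−0.04 over all genes). Both shRNA1 arrays lay below both shRNA2 arrays in 39 members (23.9% of all genes) and above in 3, Mrpl52, Mrps31 and Mrps36 (17.7% of all genes). limma called 0 members and 0% of all genes in this comparison. At an unadjusted p under 0.05, 2 members, Mrps28 and Mrpl54, were lower (1.63% of all genes) and 0 higher (3.26%). Mrps28, the counterpart of bacterial S1, gave 9.02 and 8.64 with shRNA1 and 9.50 and 9.24 with shRNA2, where the controls were at 8.92 and 8.65, a difference of −0.54 ± 0.21. Its shRNA1 arrays lay in the range of the controls or just beyond it. Mrpl54 differed by −0.48 ± 0.17 and Mrps18b by −0.39 ± 0.19, and Mrpl52 was higher with shRNA1 by 0.43 ± 0.26. Rad21 itself differed by 0.08 between the shRNAs, with a range of −0.17 to 0.32 when arrays were left out in turn.

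Probe sets of 1 gene often disagreed. Of the 33 members with 2 or more probe sets, 14 had positive differences on all of them, 3 (Mrpl52, Mrps15 and Mrps25) had negative differences on all, and 16 had both signs: Mrpl1, Mrpl11, Mrpl13, Mrpl15, Mrpl17, Mrpl19, Mrpl28, Mrpl34, Mrpl39, Mrpl41, Mrpl44, Mrpl48, Mrpl49, Mrpl51, Mrps9 and Mrps11. In some of the 16, the opposite sign came from a dim probe set only. Mrpl19 had −0.05 at a mean of 2.96, against 0.82 and 1.11 at means of 8.70 and 8.55. Mrps11 had −0.12 at 4.09 against 0.62 at 7.52, and Mrpl34 had −0.18 at 5.53 against 0.80 at 9.42. In Mrpl51 the differences spanned only −0.01 to 0.05. In others, such as Mrpl49 (means of 7.98 and 7.63), neither probe set was that dim. The gap between the 2 controls also changed sign between probe sets in 16 of the 33, and its range within a gene had a median of 0.88 and a maximum of 1.88. Mrpl49 gave a difference of −0.30 on the probe set used, with a control gap of 0.84, and 0.66 on the other, with a gap of −1.03. Mrpl48 gave −0.38 with a gap of 1.15 and 0.37 with a gap of −0.38. In both genes the probe set with the higher control replicate 1 gave the negative difference, where again that array enters both values. Mrpl15 had 7 probe sets, from −0.02 on the one used to 0.87, and Mrpl52 had 4, at −0.44, −0.42, −0.44 and −0.10. The probe set used carried the suffix _x_at, which marks probes that can bind other transcripts, in Mrpl15, Mrpl28 and Mrpl48.

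**Figure D4:**
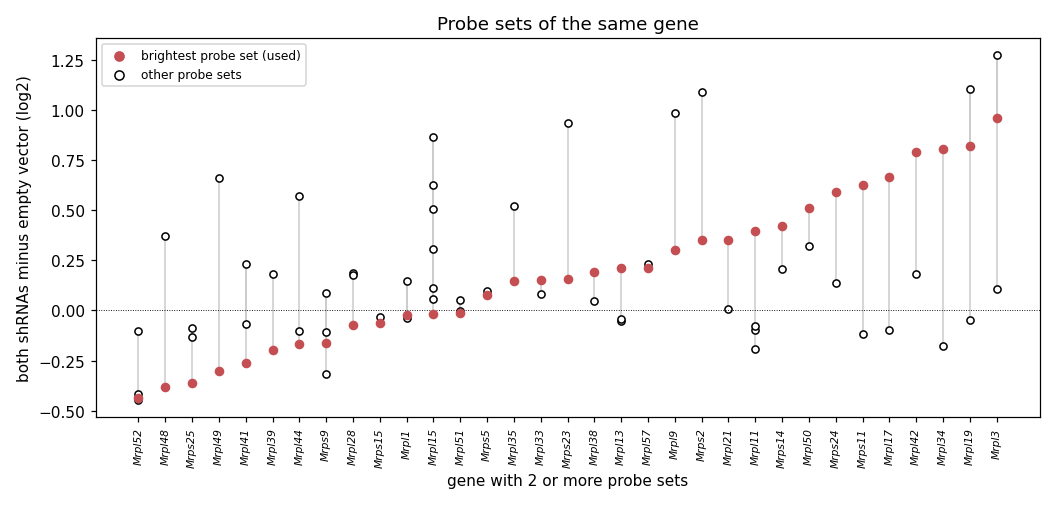
Difference of both shRNAs from empty vector in log2 intensity (vertical) for every probe set of the 33 members with 2 or more (horizontal), the one used filled and the others open. In 16 genes the points lie on both sides of 0, among them Mrpl49 (−0.30 and 0.66) and Mrpl48 (−0.38 and 0.37).

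Ribosomal proteins of the mitochondrion with names outside the Mrpl and Mrps series lay the same way. All 4 measured had a positive difference, with a median of 0.48. Both shRNA2 arrays lay above both controls in each (21.6% of all genes). Both shRNA1 arrays did so in 1 (15.2% of all genes), and all 4 shRNA arrays in 1 (11.5% of all genes). Gadd45gip1, a large-subunit protein, gave 8.22 and 8.49 with empty vector, 8.59 and 8.78 with shRNA1, and 9.07 and 9.20 with shRNA2, a difference of 0.55 ± 0.15 (adjusted p = 0.151). Ptcd3, a small-subunit protein that binds RNA, differed by 0.41 ± 0.16, Chchd1 by 0.90 ± 0.38 (0.19 without empty-vector replicate 1) and Dap3, the small-subunit protein also known as MRPS29, by 0.17 ± 0.17. As among the members, limma called 0 of the 4, where 0.734% of all genes were called higher and 1.4% lower. At an unadjusted p under 0.05, 2 were higher, against 7.88% of all genes.

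limma called 0 genes in each list of genes that work with the mitochondrial ribosome. For both shRNAs it called 0.734% of all genes higher and 1.4% lower, and these lists are short. Of 10 translation factors 8 were positive with a median of 0.27, and 3 were higher at an unadjusted p under 0.05 (7.88% of all genes). These were Pdf, which removes the formyl group from new chains, at 0.46 ± 0.14, and Slirp, which stabilises mitochondrial messengers, at 0.64 ± 0.21. The third was Tufm, the elongation factor that delivers aminoacyl-tRNA, at 0.40 ± 0.15. Of 20 genes of ribosome assembly and rRNA modification 9 were positive, with a median of −0.03. They included Tfb1m, which methylates the small-subunit rRNA, at −0.41 ± 0.15, Mettl17 at −0.39 ± 0.18 and Rcc1l at 0.30 ± 0.15. Mitochondrial aminoacyl-tRNA synthesis had 5 of 11 positive with a median of 0.00, with Iars2 at 0.46 ± 0.22, Qrsl1 at −0.30 ± 0.14 and Fars2 at 0.33 ± 0.21. Transcription and replication of mitochondrial DNA had 6 of 10 positive with a median of 0.08, with Mterf2 at 0.46 ± 0.20, Polg, the DNA polymerase, at 0.44 ± 0.19 and Tfam, which packages the DNA, at −0.27 ± 0.14. Without empty-vector replicate 1 the differences of Slirp, Tufm, Tfb1m, Iars2, Mterf2 and Polg were 0.34, 0.23, −0.26, 0.12, 0.28 and 0.69, in that order, and that of Fars2 was 0.0070.

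Among 10 transcriptional regulators of mitochondrial genes 4 were positive, with a median of −0.02. Ppargc1b, a coactivator of mitochondrial genes, gave 8.09 and 8.37 with empty vector, 7.50 and 7.60 with shRNA1, and 7.40 and 7.41 with shRNA2. All 4 shRNA arrays lay below both controls, by −0.75 ± 0.14, with an adjusted p of 0.065 (0.0238 to 0.284 over the alternatives). Gabpa, the DNA-binding subunit of the ETS factor GABP, gave 7.92 and 8.83 with empty vector, then 9.33 and 8.90, then 9.14 and 9.03, a difference of 0.72 ± 0.28. Its partner Gabpb1 differed by 0.49 ± 0.23. Without empty-vector replicate 1 these differences were 0.27 and 0.13, and that of Ppargc1b was −0.89. The other part of the protein synthesis machinery, the cytosolic ribosomal proteins, had 31 of 41 positive with a median of 0.20, and 17 (41.5%) had all 4 shRNA arrays above both controls and 1 (2.44%) below, against 11.5% and 13.6% of all genes; Rpl6 differed by 0.47 ± 0.18, Rpl10a by 0.43 ± 0.17 and Rpl7a by 0.49 ± 0.20 (0.21, 0.20 and 0.17 without empty-vector replicate 1). The nuclear-encoded respiratory chain had 48 of 80 positive with a median of 0.08, 27 (33.8%) above and 8 (10.0%) below, and its smallest p-values belonged to Cox6b2 (−1.23 ± 0.30, or −0.73 without that array), Cox7a1 (−0.70 ± 0.19) and Sdhc (−0.41 ± 0.13). Against empty-vector replicate 2 alone, the median was 0.07 for the cytosolic ribosomal proteins and 0.09 for the respiratory chain. Against replicate 1 alone these medians were 0.30 and 0.05. The shRNA mean lay above both controls in 63.4% of the cytosolic ribosomal proteins and 43.8% of the respiratory chain genes, and differences between these lists and the members were not tested.

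**Figure D5:**
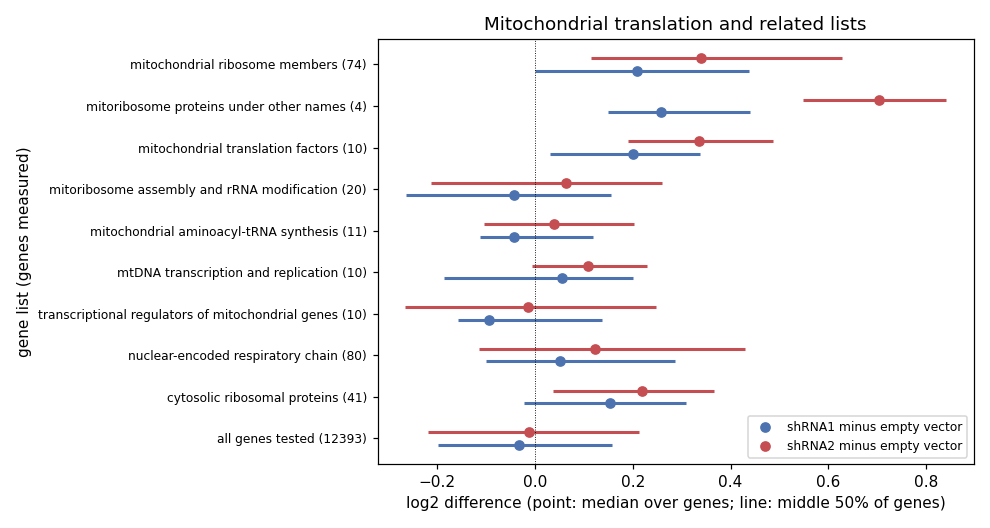
Differences from empty vector in log2 intensity by gene list, for shRNA1 (blue) and shRNA2 (red), which share the controls; points are medians over genes and lines span the quartiles. The member medians are 0.21 and 0.34, those of the 4 ribosomal proteins under other names 0.26 and 0.70, and those of assembly genes −0.04 and 0.06.

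Markers of several cell types differed in intensity between the groups as well. Marker genes of neutrophils and their precursors, 10 measured, had a summed intensity of 41714 and 27173 with empty vector, 80843 and 63887 with shRNA1, and 88463 and 85595 with shRNA2, and limma called 5 of them higher. Markers of dividing cells, 9 measured, summed to 9087 and 3100, then 8630 and 6933, then 10631 and 11245, and 4 were called higher, so that the dividing-cell sum of control replicate 1 lay within the range of the shRNA arrays. Markers of mast cells and basophils, 9 measured, summed to 38174 and 52978, then 23897 and 32704, then 27948 and 30178, with 3 called lower, and those of erythroid cells, 8 measured, to 7128 and 1666, then 1202 and 1395, then 1378 and 1058. Macrophage markers gave 17051 and 36735, then 34848 and 36231, then 25824 and 25032. Megakaryocyte markers gave 18935 and 17147, then 7238 and 13714, then 7870 and 8211. For both shRNAs against empty vector, limma called 1 of 9 macrophage markers higher and 1 lower. It called 1 of 6 megakaryocyte markers lower and 0 erythroid markers either way. Over all genes, 0.734% were called higher and 1.4% lower in that comparison. Of 5 T and NK cell markers, Nkg7, a gene of cytotoxic granules, was called higher (a difference of 2.13) and carried the list's sum of 453 and 444, then 1049 and 890, then 1264 and 1630; the list's median difference was 0.03. B cell markers summed to 101 and 107 with empty vector and 111 to 123 with shRNA, and stromal markers to 440 to 568 over all arrays. In the stromal list, Pdgfrb differed by 2.08 and was not called (2.84 without empty-vector replicate 1 and 1.32 without replicate 2), while 5 of the 6 had a negative difference. The part of these marker differences in the members' values was not tested.

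Some sequence features that the rule did not use were more frequent in the members' promoters than in those of genes tested, though most members lacked them. RefSeq promoters (GRCm38.p6, 250 bases before to 50 after the start) were found for 65 of the 74 members, 71 promoters on 16 chromosomes. Each was searched on both strands for CCGGAAG, the core bound by ETS factors such as GABP for AAGATGGCG, the site of YY1, and for CACGTG, the E-box bound by Myc. The ETS core ends in the AAG that begins the YY1 site, so these motifs can share letters. CCGGAAG was in 24 of 71 promoters, or 33.8%, against 14.0% of the promoters of genes tested and 8.86% of all 32851 promoters. AAGATGGCG was in 7, or 9.86%, against 2.31% and 1.40%. CACGTG was in 7, or 9.86%, against 9.11% and 7.15%. Some genes have several promoters in this count. Counted by gene, CACGTG was in 5 of 65 members, or 7.69%, against 10.8% of genes tested and 8.09% of all genes. By gene, CCGGAAG was in 36.9%, against 16.4% and 9.93%, and AAGATGGCG in 10.8%, against 2.82% and 1.64%. The median GC content was 58.7% for the members and 59% for genes tested. These matches describe letters and do not show that a factor binds there.

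4 promoters are shown with their matches in capitals and the rest in lower case, 5′ to 3′ on the strand of the gene. Mrpl3 (chr9:105053018-105053317, plus strand) and Mrpl58 (chr11:115403502-115403801, plus strand) are among the members with the higher positive differences (0.96 and 0.84), Mrpl52 (chr14:54426659-54426958, plus strand) has the lowest (−0.44), and Mrps11 (chr7:78782881-78783180, plus strand) stands beside another member. Mrpl3 has 1 ETS core and Mrpl58 has 2, Mrpl52 has 2 on the reverse strand, read here as CTTCCGG, and Mrps11 has 1 YY1 site on the reverse strand, read as CGCCATCTT.
Mrpl3: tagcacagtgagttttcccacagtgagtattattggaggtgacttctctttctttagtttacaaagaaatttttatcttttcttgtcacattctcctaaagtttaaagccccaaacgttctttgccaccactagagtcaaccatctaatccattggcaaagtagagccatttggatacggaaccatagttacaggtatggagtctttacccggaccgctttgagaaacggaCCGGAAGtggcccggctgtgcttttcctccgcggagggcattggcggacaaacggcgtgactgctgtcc
Mrpl58: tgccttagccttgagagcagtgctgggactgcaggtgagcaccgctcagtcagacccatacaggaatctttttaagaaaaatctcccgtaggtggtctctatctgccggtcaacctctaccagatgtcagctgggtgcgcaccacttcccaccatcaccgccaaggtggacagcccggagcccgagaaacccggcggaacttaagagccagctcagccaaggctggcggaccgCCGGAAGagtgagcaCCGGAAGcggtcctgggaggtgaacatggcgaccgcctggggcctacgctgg
Mrpl52: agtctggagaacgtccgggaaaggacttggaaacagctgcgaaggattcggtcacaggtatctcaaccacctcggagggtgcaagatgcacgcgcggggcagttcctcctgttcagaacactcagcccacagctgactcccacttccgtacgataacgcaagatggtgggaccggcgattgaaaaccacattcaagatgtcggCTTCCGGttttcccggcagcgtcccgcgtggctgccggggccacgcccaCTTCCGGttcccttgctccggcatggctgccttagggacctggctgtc
Mrps11: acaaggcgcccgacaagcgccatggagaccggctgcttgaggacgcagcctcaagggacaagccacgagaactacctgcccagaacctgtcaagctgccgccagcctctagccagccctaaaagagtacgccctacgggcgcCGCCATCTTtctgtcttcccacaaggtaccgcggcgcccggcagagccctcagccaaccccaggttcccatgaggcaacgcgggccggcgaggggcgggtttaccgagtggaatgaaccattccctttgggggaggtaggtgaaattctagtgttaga
Mrpl3 and Mrpl52, the members with the highest and the lowest difference when both controls were used, both carried ETS cores in this window. Without empty-vector replicate 1, neither held that rank.

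Among the 65 members with a promoter, the median difference was 0.26 in the 24 with the ETS core and 0.25 in the 41 without it. The 7 members with the YY1 site had a median of 0.59 and the 58 without it 0.24, but without empty-vector replicate 1 these medians were 0.10 and 0.18, so that the order turned. The 5 with an E-box had a median of 0.23 and the 60 without it 0.26, which became 0.30 and 0.16 without that array; for the ETS core the medians became 0.19 and 0.13. A start of another gene on the opposite strand lay within 1000 bases upstream for 24 of 65 members, or 36.9%, against 16.6% of 9882 genes tested. Of those neighbours 15 were measured and are not members themselves; 7 had a positive difference, with a median of −0.02. limma called 0 of all 17 measured neighbours, members included, where 0.734% of all genes were called higher and 1.4% lower. Mrpl46 and Mrps11 are a pair of members transcribed away from each other, with starts 42 bases apart, and their differences were 0.55 and 0.62.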

How the data were processed

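The deposited series table holds 22690 Affymetrix probe sets by 6 arrays as linear intensity values, which the authors made with RMA per the submitters' processing notes; no version or settings are given in the sources used here. Values ranged from 4.96 to 20614.6, and log2 was taken first. Probe sets were named from GEO's platform annotation: 20380 had exactly 1 gene, 691 several and 1606 none. A further label marked 64 as controls, some of which are also among those with no gene, so these counts overlap. Per gene the probe set with the highest mean was used. 12393 genes were fitted in R 4.3.3 with limma 3.58.1 (lmFit, eBayes) as 3 groups of 2 arrays in 1 model, with 3 residual degrees of freedom, two-sided tests, Benjamini-Hochberg adjustment over all genes and a threshold of 0.05. Errors are standard errors of the fit. The number of arrays limits the precision. The model was tested on simulated data.

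The members and lists were chosen with earlier results of these data known, so no p is given for the list. Named genes were Rad21, any member past the threshold, per comparison the 5 members with the smallest p in each direction, the 3 with the highest and lowest mean and control gap, members whose probe sets disagreed in sign, and up to 3 genes of each related list; further genes are named from the comparisons described, after their values were seen. Alternatives were filters on the dimmest 25% and 50% of genes, the mean over probe sets, quantile normalization, centring on array medians, an intensity trend, array weights, the replicate block, and leaving out each array; settings for the promoter motifs, neighbours and Mrps36 were added after the values were seen. Promoter sequences came from RefSeq (GRCm38.p6).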

Additional observations from a re-analysis of the deposited data

How the results depend on the processing

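Over 14 alternative settings the median member difference kept its sign in all 4 comparisons. Leaving out 1 array at a time, it ranged from 0.19 to 0.34 for both shRNAs, 0.11 to 0.28 for shRNA1, 0.26 to 0.40 for shRNA2 and −0.20 to −0.08 for shRNA1 minus shRNA2, and members called ranged from 0 to 36, 0 to 28, 0 to 31 and 0 to 0. The highest counts arose without empty-vector replicate 2. limma called 0 members under every setting that kept all arrays. The replicate numbers 1 and 2 are shared by the groups only as numbers (correlations of same-numbered deviations 0.199, 0.148 and 0.578). Under the replicate block, Rad21 passed in limma for both shRNAs (adjusted p = 0.0166) and for shRNA2 (0.0166). Of the results on single genes, 1096 kept direction and side, 58 newly passed the threshold (54 of them without empty-vector replicate 2, with the array of the large 3′ gap as the only control) and 45 turned sign. With the mean over probe sets, these turned sign: Mrpl49 (0.18 for both shRNAs, 0.0585 for shRNA1), Mrpl44 (0.100 and 0.0446), Mrpl41 for shRNA2 (0.00145), Mrpl48 for shRNA2 (0.0686), and for both shRNAs Mrpl51 (0.0116), Mrpl1 (0.0300), Mrpl28 (0.0983), Mrpl15 (0.35) and Fars2 (−0.0958). With arrays centred on their medians, Mrpl51 (0.0162), Mrpl1 (0.00578) and Mrpl15 (0.0120) did. Leaving out arrays, sign was not stable for both shRNAs in Mrps25 (−0.76 to 0.0344), Mrpl49 (−0.72 to 0.12), Mrpl48 (−0.96 to 0.19), Mrpl41 (−0.61 to 0.0894), Mrpl51 (−0.16 to 0.13), Mrpl1 (−0.19 to 0.15), Mrps5 (−0.17 to 0.32), Mrpl47 (−0.41 to 0.60), Mrpl28 (−0.54 to 0.40), Mrpl27 (−0.27 to 1.24), Mrpl50 (−0.0900 to 1.12), Mrpl15 (−0.28 to 0.25), Mrpl39 (−0.52 to 0.13), Mrpl44 (−0.42 to 0.0896) and Mrps9 (−0.56 to 0.24). For shRNA1 these were Mrpl48 (−1.05 to 0.10), Mrpl41 (−0.66 to 0.0376) and Mrpl44 (−0.49 to 0.0223), and for shRNA2 Mrps25 (−0.63 to 0.16), Mrpl41 (−0.56 to 0.14), Mrpl39 (−0.52 to 0.13) and Mrpl48 (−0.86 to 0.29). For shRNA1 minus shRNA2 they were Mrpl24 (−0.0080 to 0.20), Mrps15 (−0.0034 to 0.0615) and Rad21 (−0.17 to 0.32). The cause was not tested. With 2 arrays a group, the number of arrays limits what could be called.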

Other observations

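Of the symbols without a probe set of their own, 2 lie on probe sets that the annotation assigns to 2 genes, so that their signal cannot be given to either. The probe set of Gm6238 and Mrpl30 was measured at 9.16 and 10.60 with empty vector, 10.65 and 10.58 with shRNA1, and 10.52 and 10.50 with shRNA2. The probe set of Ccdc142 and Mrpl53 was measured at 8.64 and 9.23, then 9.36 and 9.37, then 9.37 and 9.48, so that all 4 shRNA arrays lay above both controls, by a mean of 0.46. A probe set shared by Nme3 and Mrps34 differed by −0.06, where the probe set of Mrps34 alone differed by 0.04.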
